A study of Mus musculus with 412 samples.

Results

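Colonic sensory neurons carry receptors for GABA and the transporters that set their chloride content, and 7 of these genes were followed here, out of 45513 genes in the deposited table. They are the GABA-A alpha subunits Gabra2, Gabra3 and Gabra5, the GABA-B receptor subunits Gabbr1 and Gabbr2, and the cation-chloride cotransporters Slc12a2 (NKCC1) and Slc12a5 (KCC2). They were chosen by name, and the Ensembl identifier of each matched exactly 1 row. The data came from C57BL/6J mice whose colon wall had been injected with Fast Blue, a dye that is carried back along the nerve to the cell body. Dorsal root ganglia were taken from the thoracolumbar segments (TL) or the lumbosacral segments (LS), dissociated into separate primary cultures for TL and LS, and single dye-filled neurons were picked by pipette for full-length mRNA sequencing. The labels name 203 TL and 196 LS neurons and 13 samples of bath fluid, and the table holds 167 TL and 158 LS neurons. The other 74 neurons and the bath samples were not analysed here. Before clustering, the authors removed some further cells as contaminating satellite glia, whereas every cell of the table was kept here as a neuron.

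The labels name no animal, age or culture, so TL and LS are each a single sample made of many neurons, and no test between them was possible. Each share of neurons carries a 95% Clopper-Pearson interval (exact), which reflects only the counting of neurons, and the comparisons of members were repeated within library plates 2 to 6, each of which held neurons of both segments. Plate 1 held 5 TL neurons alone. Levels are transcripts per 1000000 (TPM), obtained by undoing the log2 transformation and rescaling each neuron to that total. TPM divides reads by 1 length for each gene, so levels can be set side by side between genes only as far as those lengths hold. A neuron was counted for a gene when its level was 10 TPM or more.

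GABA acts on a channel and on a G protein-coupled receptor. The GABA-A receptor is a chloride channel usually built of alpha, beta and gamma subunits, and the alpha subunit shapes its kinetics, its place in the membrane and its response to benzodiazepines. The GABA-B receptor is a G protein-coupled receptor that needs both of its subunits: GABBR1 binds GABA, and GABBR2 brings the pair to the surface and couples it to G proteins. The direction of chloride flow through GABA-A receptors follows the chloride gradient, which NKCC1 raises by moving chloride in and KCC2 lowers by moving it out. Adult dorsal root ganglion neurons are known to hold much chloride, so that GABA depolarises them.

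The alpha subunits fall into separate kinds at 1 codon of the ligand-binding domain, a histidine codon in those that bind classical benzodiazepines and an arginine codon in those that do not. The stretch around it is shown because no arginine-type subunit reached 10 TPM in any neuron. The sequences are from GENCODE M21 transcripts on GRCm38, 45 coding bases each, 5′ to 3′, with the codon in capitals.
Gabra2: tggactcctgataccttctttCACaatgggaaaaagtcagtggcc
Gabra3: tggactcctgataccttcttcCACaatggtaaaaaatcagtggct
Gabra5: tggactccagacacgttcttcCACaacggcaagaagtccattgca
Gabra4: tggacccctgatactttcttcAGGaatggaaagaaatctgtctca
Gabra6: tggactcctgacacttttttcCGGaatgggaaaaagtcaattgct
In Gabra2 the stretch lies at chr5:71014484-71014528, in Gabra3 at chrX:72501147-72501191 and in Gabra5 at chr7:57488870-57488914, each on the minus strand and within the fifth of 10 exons. In the neurons, Gabra4 was above 0 in 20 of 325 and never above 9.54 TPM, and Gabra6 was above 0 in 1 neuron, at 0.406 TPM. The highest values of the members, which carry the histidine codon, were 26.4 TPM for Gabra2, 65.5 TPM for Gabra3 and 63.0 TPM for Gabra5.

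Over all 325 neurons the 7 genes ranked from Gabbr1 (mean 43.7 ± 23.8 TPM, SD over neurons) through Gabbr2 (21.5 ± 15.1), Slc12a2 (10.2 ± 14.9), Gabra3 (10.2 ± 12.5), Gabra2 (4.49 ± 4.95) and Gabra5 (1.25 ± 4.62) to Slc12a5 (0.264 ± 0.684). The means of Slc12a2 and Gabra3 could not be told apart, and each neighbouring pair in this order overlapped in the spread over neurons. A single read on a member was worth a median of 0.0919 to 0.276 TPM, and the fewest reads behind any member counted at 10 TPM or more was 9. Library depth ranged from 416007 to 12058968 reads on genes, with medians of 2709639 in TL and 3202777 in LS.

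All 10 sensory neuron markers on a fixed list, among them Tubb3, Uchl1, Prph and Scn10a, were at 10 TPM or more in over 50% of the neurons of each segment. Markers of satellite glia, which wrap these neurons, were also present: the summed level of 10 of their markers had a median of 1961 TPM in TL (range 0 to 99027) and 135 TPM in LS (range 0 to 60227). Of the markers of other cells, Ptprc, which all white blood cells carry, was never above 1.80 TPM, and Cldn5, which marks endothelium, reached 10 TPM in 1.20% of TL and 0% of LS neurons. C1qb, from a macrophage list of 8 genes, reached 10 TPM in 44.9% of TL and 76.6% of LS neurons, while C1qa reached it in none. Egfl7, from the endothelial list of 8, reached it in 85.0% and 94.3%, and Dcn, from a fibroblast list of 6, in 40.1% and 46.8%, with a highest value of 1866 TPM, while the other 5 fibroblast genes reached it in under 8% of either segment. The part of these transcripts in the results was not tested. One TL neuron of plate 3 stood apart, with an endothelial marker sum of 25115 TPM against 451 TPM in the next highest neuron. It had 14.5 TPM of Gabra2 and no reads on Gabra3, and the main shares of these genes are also given without it.

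**Figure D1:**
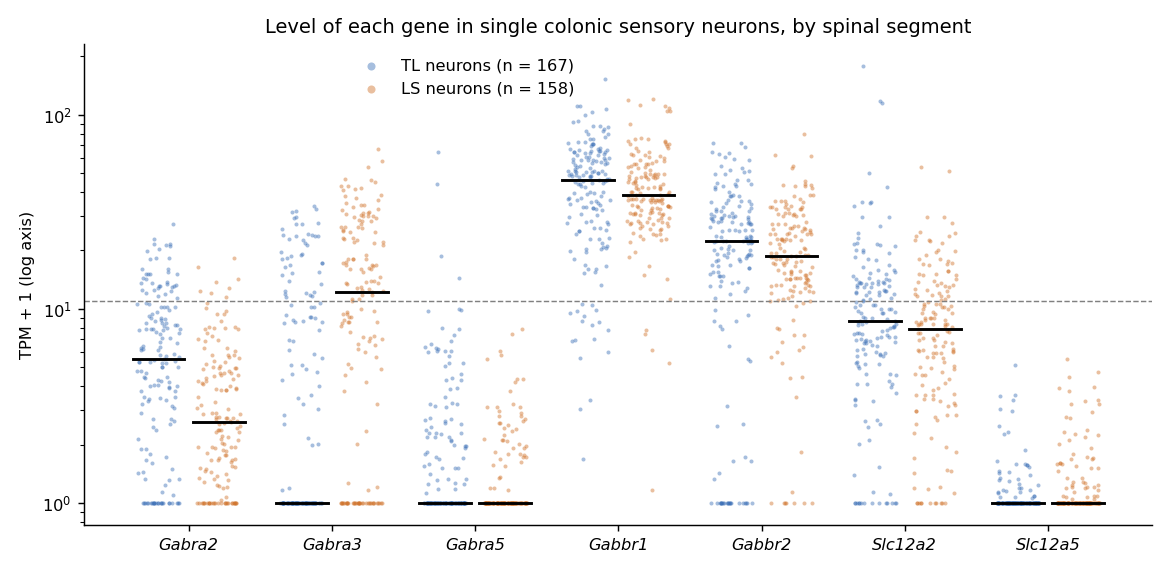
Level of the 7 genes in single neurons, as TPM + 1 on a log axis, with TL neurons in blue (n = 167) and LS neurons in orange (n = 158). Black lines are medians and the dashed line is 10 TPM. Gabra3 had a median of 0 in TL and 11.3 TPM in LS, Gabra2 4.51 and 1.62 TPM, and no neuron reached the line for Slc12a5.

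Gabra3, the alpha3 subunit, was the member whose share of neurons at 10 TPM differed most between the segments. In TL neurons its level ran from 0 through a median of 0 to 33.1 TPM, and in LS neurons from 0 through a median of 11.3 to 65.5 TPM. The ranges overlapped, but 88 of 167 TL neurons had no read of Gabra3 against 37 of 158 LS neurons. At 10 TPM or more were 42 TL neurons (25.1%, interval 18.8 to 32.4%) and 85 LS neurons (53.8%, interval 45.7 to 61.7%), a difference of 28.6 percentage points (interval 18.1 to 38.3). The mean was higher in LS (14.5 ± 14.2 TPM) than in TL (6.04 ± 8.89 TPM), with a log2 ratio of 1.26. The share was higher in LS in each of the 5 plates, by 10.8 to 43.6 points. It was also higher in LS, by 22.1 points, when the 25% of neurons with most glial markers was left out.

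Gabra2, the alpha2 subunit, went the other way at lower levels. TL neurons ranged from 0 through a median of 4.51 to 26.4 TPM and LS neurons from 0 through a median of 1.62 to 17.3 TPM. At 10 TPM or more were 37 TL neurons (22.2%, interval 16.1 to 29.2%) and 8 LS neurons (5.06%, interval 2.21 to 9.73%), so that the share was 17.1 points lower in LS (interval -24.4 to -9.81). The share was lower in LS in each of the 5 plates, by 15.8 points in the plate with the smallest gap. The mean was 2.18-fold higher in TL, 6.08 ± 5.66 against 2.80 ± 3.33 TPM. Without the endothelial-marker neuron the TL share was 21.7%.

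Gabra5, the alpha5 subunit, was scarce. It was above 0 in 76 TL neurons and 49 LS neurons, and its median was 0 in both. It reached 10 TPM in 4 TL neurons, at 63.0, 43.1, 17.7 and 13.4 TPM, and in 0 of 158 LS neurons, where the highest value was 6.86 TPM and a count of 0 allows a share of up to 1.90% if the limit is set at 3 neurons, or 2.31% by the upper end of the exact interval. These 4 neurons came from plates 1, 3 and 5, 2 of them with Piezo2 and without Gfra3 at 10 TPM, 1 with both genes and 1 with neither.

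These gaps were set against all genes. Among the 4 members with a mean of 10 TPM or more in either segment, Gabra3 alone differed by 2-fold or more, against 5.93% of the 7752 genes that passed this filter (2.58% higher and 3.35% lower in LS). The other 3, Gabbr1, Gabbr2 and Slc12a2, differed less. Gabra2 and Gabra5 stayed under the filter, as did Slc12a5. Counted by share, Gabra3 was again the only 1 of 5 members past a difference of 20 points, against 5.84% of 10283 genes (4.08% higher and 1.76% lower in LS). The median log2 ratio of LS to TL was -0.11 over the 4 members and 0.04 over the 7752 genes.

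**Figure D2:**
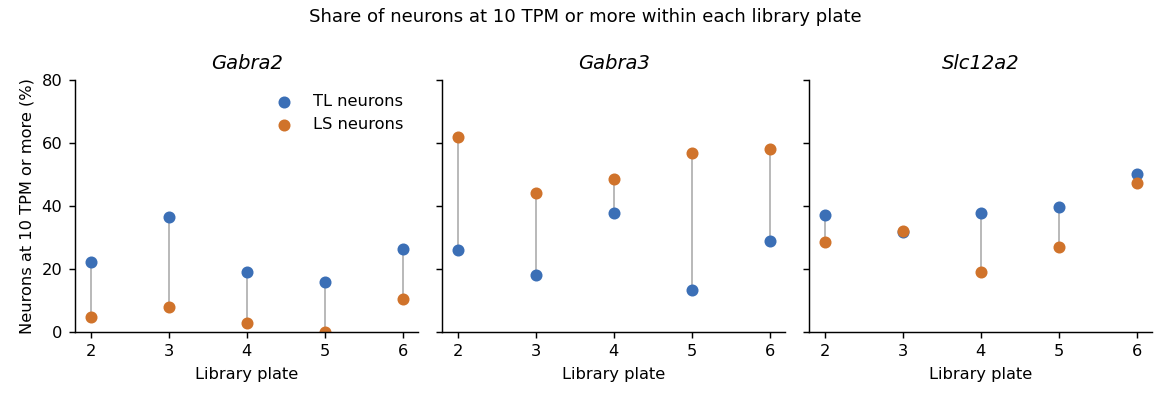
Share of neurons at 10 TPM or more, in percent, within each library plate from 2 to 6, for Gabra2, Gabra3 and Slc12a2, with TL in blue and LS in orange and a grey line joining the segments of a plate. LS lay below TL in all 5 plates for Gabra2 and above it in all 5 for Gabra3, while for Slc12a2 the order held in 4 of 5.

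The neurons were then divided by 2 genes that mark broad kinds of sensory neuron, Gfra3, the artemin receptor of many peptidergic nociceptors, and Piezo2, a mechanically gated channel. With a limit of 10 TPM for each, 158 neurons had Gfra3 alone (Gfra3 neurons: 82 TL, 76 LS), 120 had Piezo2 alone (Piezo2 neurons: 55 TL, 65 LS), 25 had both and 22 had neither. The 22 with neither had a median of 9459 genes above 0, against 13679 in Gfra3 neurons and 14174 in Piezo2 neurons. No member with a mean of 10 TPM or more in either class differed by 2-fold between Gfra3 and Piezo2 neurons when the segments were pooled (0 of 4), where 10.6% of 7895 genes did. By share with the segments pooled, 0 of 5 members differed by 20 points, where 11.9% of 10283 genes did (5.23% higher and 6.69% lower in Gfra3 neurons).

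The gap between segments in the alpha subunits was larger in Piezo2 neurons than over all neurons and smaller in Gfra3 neurons. Between the classes, the gap was wide within TL, where Gfra3 neurons stood 29.0 points below Piezo2 neurons for Gabra2 (interval -43.2 to -14.4) and 22.0 points above them for Gabra3 (interval 6.97 to 34.9), each in 5 of 5 plates. Within LS it was -3.52 points for Gabra2 and 6.90 points for Gabra3, and both intervals included 0. TL Piezo2 neurons held Gabra2 with little Gabra3: the median of Gabra2 was 7.95 TPM (0 to 21.8), and 22 of 55 neurons reached 10 TPM (40.0%, interval 27.0 to 54.1%). LS Piezo2 neurons held Gabra3 with little Gabra2: the median of Gabra2 was 1.02 TPM (0 to 13.2), and 4 of 65 reached 10 TPM (6.15%, interval 1.70 to 15.0%). The mean of Gabra2 was 3.60-fold higher in TL than in LS Piezo2 neurons. The neuron rich in endothelial markers was one of the 22, and without it the TL share was 38.9%.

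Gabra3 in Piezo2 neurons ran the opposite way. In TL Piezo2 neurons it was listed at 0 in 39 of 55, with a highest value of 31.5 TPM, and 8 neurons reached 10 TPM (14.5%, interval 6.50 to 26.7%). In LS Piezo2 neurons the median was 10.8 TPM (0 to 65.5), and 34 of 65 reached 10 TPM (52.3%, interval 39.5 to 64.9%). The authors describe a subtype with Piezo2 that is found almost only in LS, so segment and subtype cannot be told apart here. The gap between segments was 37.8 points (interval 21.1 to 51.4), and the mean was 4.30-fold higher in LS. Without the neuron rich in endothelial markers the gap was 37.5 points. LS was higher in each of the 5 plates, by 4.44 to 57.1 points, and for Gabra2 lower in each, by at least 26.4 points.

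In Gfra3 neurons the gaps had the same direction and were smaller. A peptidergic subtype with Gfra3 is described by the authors as almost confined to LS, so segment and subtype cannot be told apart here either. Gabra3 reached 10 TPM in 30 of 82 TL neurons (36.6%, interval 26.2 to 48.0%) and 45 of 76 LS neurons (59.2%, interval 47.3 to 70.4%), a difference of 22.6 points, with LS higher in 5 of 5 plates. That difference was 8.46 points (50.0% against 58.5%) when the 25% of neurons with most glial markers was left out. In the same neurons the summed satellite glia markers had a median of 2259 TPM in TL and 54.9 TPM in LS, and their part in the difference was not tested. For Piezo2 neurons, leaving these out gave 40.3 points. Gabra2 reached 10 TPM in 9 of 82 TL Gfra3 neurons and 2 of 76 LS Gfra3 neurons. Whether the segment gap itself differed between Gfra3 and Piezo2 neurons was not tested, since each segment is 1 sample.

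**Figure D3:**
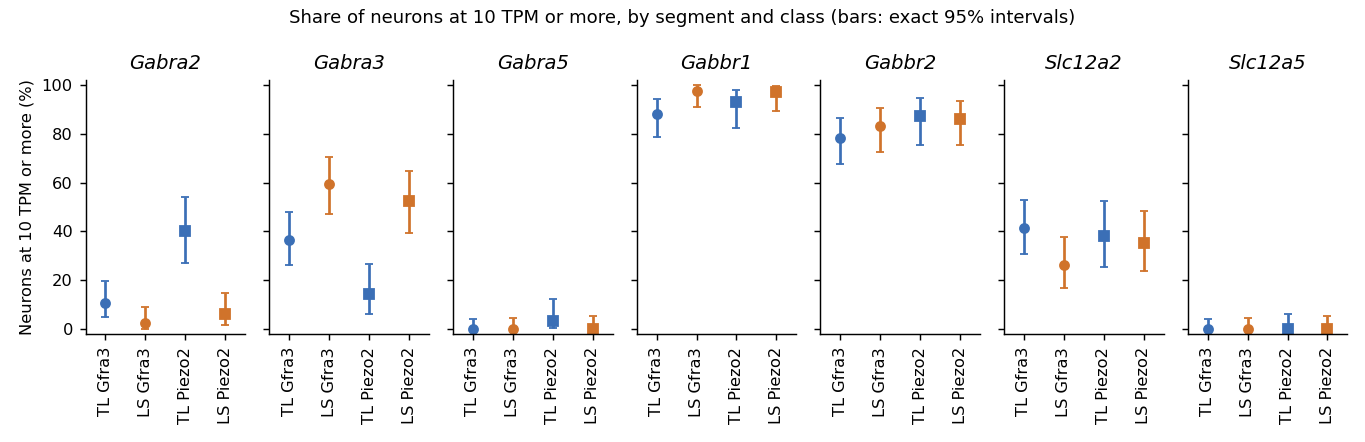
Share of neurons at 10 TPM or more, in percent, for the 7 genes in TL (blue) and LS (orange) neurons, with circles for Gfra3 neurons (82 TL, 76 LS) and squares for Piezo2 neurons (55 TL, 65 LS), and bars for exact 95% intervals. Gabra2 stood highest in TL Piezo2 neurons (40.0%) and Gabra3 lowest there (14.5%), while the GABA-B subunits stood above 75% in all 4 groups.

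Few neurons had high levels of both Gabra2 and Gabra3. Both were at 10 TPM or more in 9 of 325 neurons (2.77%), against 36 with Gabra2 alone and 118 with Gabra3 alone. In TL, where 22.2% of neurons reached 10 TPM of Gabra2 and 25.1% of Gabra3, 8 of 167 (4.79%) reached both. In LS 1 of 158 did. Whether these joint counts fell below what the separate shares would give was not tested. At lower levels Gabra2 and Gabra3 shared neurons more often, with both above 0 in 176 neurons (54.2%). Across neurons their levels had a Spearman rho of -0.05 (n = 325), 0.11 within TL and -0.03 within LS, values that share each library's depth and total.

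Setting Gabra3 against Gabra2 within each neuron by TPM gave the same direction without a threshold. Gabra3 exceeded Gabra2 in 115 of 158 LS neurons (72.8%, interval 65.1 to 79.6%) and 59 of 167 TL neurons (35.3%, interval 28.1 to 43.1%). In Piezo2 neurons it did so in 52 of 65 LS neurons (80.0%, interval 68.2 to 88.9%) and 8 of 55 TL neurons (14.5%, interval 6.50 to 26.7%). Gabra2, Gabra3 and Gabra5 were all at 0 in 27 of 325 neurons (8.31%), 18 TL and 9 LS.

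**Figure D4:**
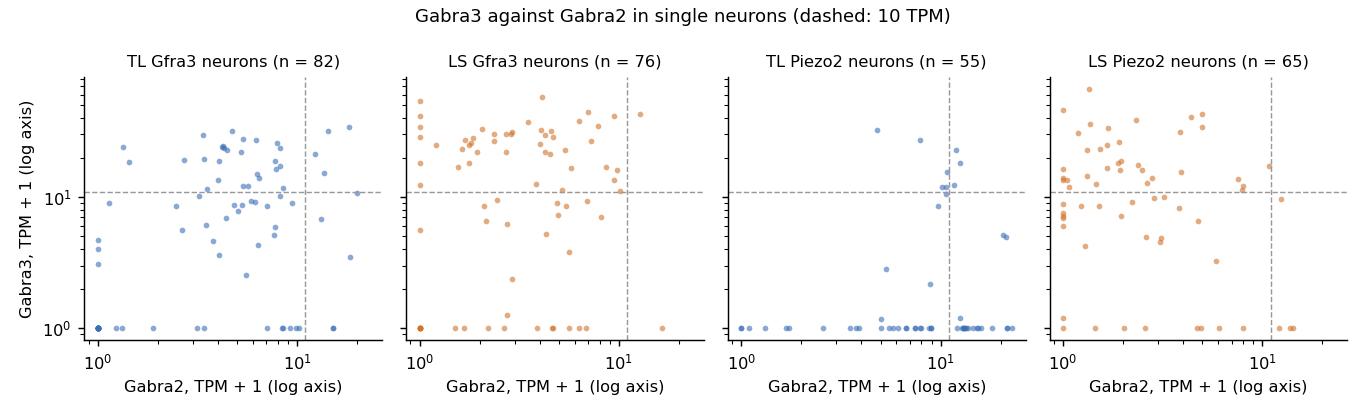
Gabra3 against Gabra2 in single neurons, both as TPM + 1 on log axes, in TL Gfra3 (n = 82), LS Gfra3 (n = 76), TL Piezo2 (n = 55) and LS Piezo2 neurons (n = 65), with dashed lines at 10 TPM. In TL Piezo2 neurons 39 of 55 points lie on the floor of Gabra3, and in LS Piezo2 neurons 34 of 65 lie at or above 10 TPM of Gabra3, where 0 also reach 10 TPM of Gabra2.

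A working GABA-A receptor also needs beta and usually gamma subunits, and several of these differed by class. Gabrg3 was at 10 TPM or more in 41.8% of Gfra3 and 0.833% of Piezo2 neurons, Gabrb1 in 18.4% and 1.67%, Gabrb2 in 0% and 5.83%, and Gabrg1 in 0% and 2.50%. All 4 had means below 6 TPM in both segments. By class, Gabrg3 averaged 9.14 TPM in Gfra3 and 0.585 TPM in Piezo2 neurons, and Gabrb1 6.16 and 2.20 TPM. Gabrb2 and Gabrg1 averaged below 2 TPM in both classes. The delta, epsilon, pi, theta and rho subunits all had means below 2 TPM.

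Genes for the assembly and anchoring of these receptors were widely present. Of 10 such genes 8 had a mean of 10 TPM or more, among them Gphn, the gephyrin scaffold (20.5 TPM in TL, 19.2 in LS), Lhfpl4, which links GABA-A receptors to neuroligin at synapses (57.2 and 45.7 TPM), Clptm1, which holds subunits back from the surface (79.1 and 106.6 TPM), and Trak1 (34.6 TPM in each). Gabarap and its relatives Gabarapl1 and Gabarapl2, which also act in autophagy, were at 10 TPM or more in 100% of neurons. None of the 8 differed by 2-fold between segments, where 5.93% of 7752 genes did. Between classes 1 of the 8 did, where 10.6% of 7895 genes did. This was Lhfpl4, 2-fold or more higher in Piezo2 (72.5 TPM) than in Gfra3 neurons (34.6 TPM).

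Transcripts of the GABA-B receptor subunits were widespread, those of Gabbr1 more so than those of Gabbr2. On GRCm38, Gabbr1 lies at chr17:37045966-37075067 on the plus strand and Gabbr2 at chr4:46662305-46991873 on the minus strand. Gabbr1 was above 0 in all 325 neurons, from 0.696 through a median of 45.4 to 151.9 TPM in TL and from 0.166 through 37.4 to 119.8 TPM in LS. It was at 10 TPM or more in 149 TL neurons (89.2%, interval 83.5 to 93.5%) and 153 LS neurons (96.8%, interval 92.8 to 99.0%), while its mean was 44.8 ± 25.6 TPM in TL and 42.6 ± 21.7 TPM in LS. The gap in the share depended on the threshold and on neurons with few genes: it was 7.61 points at 10 TPM, 1.73 points at 5 TPM and 0.870 points without the 25% of neurons with fewest genes above 0.

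Gabbr2 was lower than its partner. It ran from 0 through a median of 21.4 to 70.9 TPM in TL and from 0 through 17.8 to 78.5 TPM in LS, and was at 10 TPM or more in 128 TL (76.6%, interval 69.5 to 82.8%) and 131 LS neurons (82.9%, interval 76.1 to 88.4%). The segments overlapped throughout, and the interval of the difference, -2.53 to 14.9 points, included 0. Of the 29 neurons with no Gabbr2 read, 22 were TL and 7 LS, and 12 of them were among the 22 neurons with neither Gfra3 nor Piezo2.

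Both GABA-B subunits were at 10 TPM or more in 254 neurons (78.2%, interval 73.3 to 82.5%), in 79.1% of Gfra3 and 85.0% of Piezo2 neurons. Gabbr1 exceeded Gabbr2 in 282 of 325 neurons, with a median ratio of 2.20 (quartiles 1.39 and 3.05) in the 296 neurons that had both. This excess was seen in 91.1% of Gfra3 neurons and 78.3% of Piezo2 neurons. Gabbr1 was higher on average in Gfra3 (49.9 ± 26.7 TPM) than in Piezo2 neurons (37.7 ± 17.5 TPM), in each of 5 plates, whereas Gabbr2 averaged 21.8 and 22.8 TPM. The levels of the 2 subunits had a Spearman rho of 0.47 across neurons, 0.57 within TL and 0.28 within LS.

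The auxiliary KCTD subunits, which bind GABBR2 and set how fast the response starts and fades, came down to 2 of 4 genes. Kctd16 had means of 172.1 TPM in TL and 178.7 TPM in LS, the highest on the pathway list after the 3 Gabarap genes, and Kctd8 had 56.4 and 37.8 TPM. Kctd12, the form known for strong desensitisation, and Kctd12b had means below 1 TPM and each reached 10 TPM in under 1% of the neurons of either segment. Both receptor subunits and Kctd16 were together at 10 TPM or more in 252 neurons, that is in all but 2 of the neurons with both receptor subunits. GABA-B receptors often act through Kir3 potassium channels, and here Kcnj3 was the most abundant of the 4 channel genes, at 4.24 TPM in TL and 3.82 TPM in LS, and at 10 TPM or more in 3.16% of Gfra3 and 21.7% of Piezo2 neurons.

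Slc12a2, which loads chloride, was above 0 in 300 of 325 neurons, and Slc12a5, which extrudes it, in 94. Slc12a2 exceeded Slc12a5 in 296 neurons and the reverse held in 6. Slc12a5 lies at chr2:164960802-164999731 on the plus strand of GRCm38. It ran from 0 through a median of 0 to 4.15 TPM in TL and to 4.49 TPM in LS. It was at 10 TPM or more in 0 of 325 neurons, which allows a share of up to 0.923% with the limit of 3 neurons and 1.13% by the exact interval. Where it was above 0 it often rested on few reads, with 1 to 3 in 39 of the 94 neurons. At 1 TPM or more were 9 of 167 TL neurons (5.39%) and 20 of 158 LS neurons (12.7%), and the level had a Spearman rho of 0.39 with the number of genes above 0 (n = 325).

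Slc12a2 ranged from 0 through a median of 7.63 to 177.7 TPM in TL and from 0 through a median of 6.89 to 53.0 TPM in LS. At 10 TPM or more were 66 TL neurons (39.5%, interval 32.1 to 47.4%) and 49 LS neurons (31.0%, interval 23.9 to 38.9%). The interval of this difference, -18.6 to 1.89 points, included 0, and the order reversed in 1 of 5 plates by 0.182 points. Within Gfra3 neurons alone the shares were 41.5% in TL and 26.3% in LS, a difference of -15.1 points (interval -29.0 to -0.349), with LS lower in 4 of 5 plates, and within Piezo2 neurons 38.2% and 35.4%. Gfra3 neurons (34.2%) and Piezo2 neurons (36.7%) overlapped too, with an interval of -13.8 to 8.67 points.

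Glial markers moved with Slc12a2 more than with any other member. Its level had a Spearman rho of 0.43 with the summed satellite glia and Schwann cell markers (n = 325), 0.34 within TL and 0.46 within LS, where both quantities are shares of the same library total. For the other 6 members rho lay between -0.24 and 0.14. The marker sum had a median of 3361 TPM in TL and 1135 TPM in LS. Pmp22, from the Schwann cell list of 8, was widespread in the sum. It reached 10 TPM in 100% of TL and 90.5% of LS neurons, with medians of 888 and 404 TPM. Of the 10 satellite glia markers Apoe had the highest medians, 1707 TPM in TL and 102 TPM in LS. The median of Sox10 was 0.609 TPM in TL and 0 in LS. In the 25% of neurons with most glial markers 48 of 82 reached 10 TPM of Slc12a2 (58.5%, interval 47.1 to 69.3%), against 67 of 243 in the rest (27.6%, interval 22.1 to 33.6%). The 3 highest neurons, at 177.7, 116.9 and 113.7 TPM, were all TL. Among the other 243 neurons Slc12a2 had a median of 6.49 TPM, and its mean was 8.27 TPM in TL and 6.85 TPM in LS. These neurons were not free of glial markers, as the lowest marker sum in any neuron was 18.9 TPM. The part of glial RNA in the level of Slc12a2 was not tested.

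**Figure D5:**
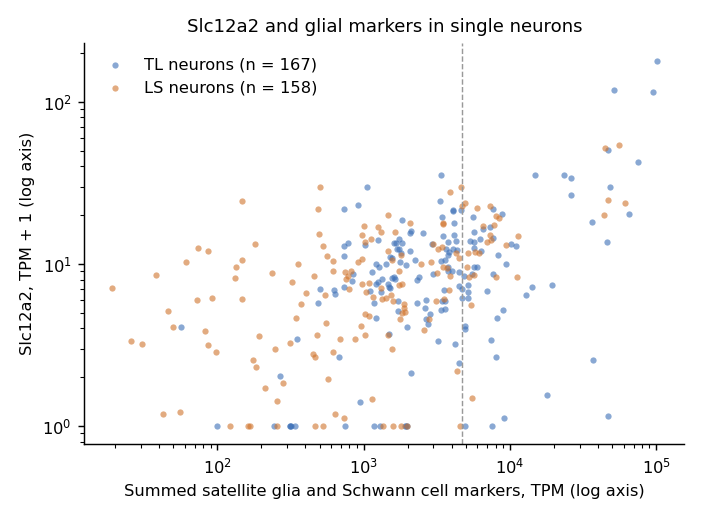
Slc12a2, as TPM + 1, against the summed TPM of 18 satellite glia and Schwann cell markers in single neurons, both on log axes, with TL in blue (n = 167) and LS in orange (n = 158). The dashed line bounds the 25% of neurons with most glial markers. The highest point, at 177.7 TPM of Slc12a2, is also the neuron with the highest marker sum.

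Of the other transporters of the family, Slc12a7 and Slc12a4 had low means. Slc12a7, which encodes the chloride extruder KCC4, had means of 2.85 TPM in TL and 5.16 TPM in LS, and Slc12a4 (KCC1) 3.42 and 2.24 TPM. Slc12a7 was at 10 TPM or more in 30.8% of Piezo2 and 2.53% of Gfra3 neurons. Slc12a9, a relative of uncertain transport activity, averaged 8.71 TPM in TL and 10.4 TPM in LS. It was at 10 TPM or more in 49.4% of Gfra3 and 40.0% of Piezo2 neurons. The kinase Wnk1 (21.0 and 21.3 TPM) and its partner kinase SPAK, encoded by Stk39 (18.8 and 17.7 TPM), which switch NKCC1 on and KCCs off by phosphorylation, were at 10 TPM or more in 79.6% to 90.5% of neurons.

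On the list of chloride channels and exchangers, the mean of Ano3 was 2-fold or more higher in TL (34.7 against 14.1 TPM). Whether Ano3 conducts chloride was not tested. It reached 10 TPM in 67.7% of TL and 53.8% of LS neurons. The mean of Best1 was 2-fold or more higher in LS (17.1 against 8.06 TPM). Of the 7752 genes past the filter, 3.35% were 2-fold or more higher in TL and 2.58% in LS. Clcn3, an endosomal exchanger, averaged 14.1 TPM in TL and 12.9 TPM in LS. Genes that make or package GABA were near 0: Gad1 and Gad2 had means below 1 TPM and Slc32a1, the vesicular GABA transporter, was listed at 0 in every neuron. Abat, which breaks GABA down, averaged 22.0 TPM in TL and 23.6 TPM in LS. Between classes Lhfpl4 and Ano3 were 2-fold or more higher in Piezo2 neurons, where 6.21% of all genes were and 4.41% were higher in Gfra3 neurons.

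The genes whose levels followed each member most closely were sought among the 10283 genes at 10 TPM or more in at least 10% of neurons. They are a description over 325 neurons that share plates, depth and segment. For Gabra3 they were Qpct, a peptide-modifying cyclase (Spearman rho 0.69), Scn3b, a sodium channel beta subunit (0.61), and Hpcal4, a calcium sensor (0.61). After the mean of each plate and segment was subtracted, Qpct and Hpcal4 stayed among the top 3, at 0.59 and 0.57. For Gabra2 they were Galnt14 (0.51), Adam22 (0.48) and Lamp2 (0.47), none of which stayed among the top 3. For Gabbr1 they included Pclo, a presynaptic scaffold (0.69), which stayed, and Cds2 (0.68), which did not. For Gabbr2 they were Nipal3 (0.61) and the kinesin motors Kif1a (0.58) and Kif5a (0.55), and the first 2 stayed. For Slc12a2 they were Scd2, a fatty acid desaturase (0.54), Cdh11, a cadherin (0.48), and Lgr4 (0.45), and the first 2 stayed. Gabra5 and Slc12a5, the sparse members, had no gene above 0.39 and 0.34 before the means were subtracted, and for Slc12a5 the closest after it, Gm28022, had 0.41.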

How the data were processed

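Single-neuron libraries were made by Smart-seq2 and sequenced as 75 bp read pairs. Per the submitters' processing notes, bcl2fastq 2.15.0.4, STAR 2.4.1 and featureCounts 1.4.4 were used on GRCm38.p3. The deposited table holds log2(x + 1), where the authors divided reads by gene length and scaled each neuron. This was tested on the values: with GENCODE M21 exon lengths, 65.0% of values above 0 were whole reads (relative tolerance 1e-06), against 0.0669% with lengths changed at random, and lengths for 8712 further genes were taken from the values. x was rescaled to 1000000 per neuron, giving the TPM used here. Symbols came from GENCODE M21. No test was run, because the labels name no animal or culture. Intervals (scipy 1.17.1) are Clopper-Pearson for shares and Newcombe for differences, and cover counting error only, as reads without molecular identifiers are not independent molecules. Ratios of means used genes with a mean of 10 TPM or more in either group and were called at 2-fold. Some genes of the pathway list, and counts that rest on them, are not reported here. Scripts were tested on simulated data. The alternatives tried are given in the closing section. The members, gene lists and named genes (all members, pathway genes with a mean of 10 TPM or more, fixed subunits and transporters, and the 3 closest genes by Spearman) were chosen with earlier results of these data known, and joint counts of members and the counts by segment within a class were added after values were seen.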

Additional observations from a re-analysis of the deposited data

How the results depend on the processing

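Share differences were recomputed under 17 alternatives for LS minus TL and 19 for Gfra3 minus Piezo2 neurons, 1 of them (without the neuron with most endothelial markers) chosen after seeing the data, as was the repeat within Gfra3 and Piezo2 neurons. Within Piezo2 neurons LS minus TL kept its sign, at -55.9 to -7.27 points for Gabra2 and 16.1 to 56.1 for Gabra3. Within Gfra3 neurons Gabra2 ran from -18.1 to 0 (at 20 TPM) and Gabra3 from 8.02 (at 1 TPM) to 27.1. Gabra3 was higher in LS under all 17, by 18.5 to 33.8 points, and Gabra2 lower in LS under all 17. Differences of Slc12a2 stayed within their interval, but between classes its sign changed at 20 TPM (7.46) and without rescaling (5.64). Between classes the sign also changed, inside the interval, for Gabbr1 without the neurons with most glial markers (0.995) or fewest genes (1.03) and for Gabbr2 without the latter (0.277). Leaving out any plate moved no member's difference outside its interval. Thinning left out 1 TL and 3 LS neurons. The values below lay outside the interval of the reported difference or reversed a difference whose interval left out 0, and the cause was not tested.

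For LS minus TL in points, Gabra2 gave -29.6 at a threshold of 5 TPM, -3.59 at 20 TPM, -28.2 as reads per 1000000 and -29.1 thinned to 500000 reads. Gabra5 gave -9.48 at 5 TPM and -12.1 at 1 TPM. Gabbr1 gave 1.73 at 5 TPM, -0.034 at 1 TPM, -0.34 on deposited values without rescaling, 1.16 both as reads per 1000000 and thinned, and 0.87 without the neurons with fewest genes. Gabbr2 gave -10.2 at 20 TPM, -5.54 without rescaling and -7.72 without the neurons with fewest genes. Slc12a5 gave 7.27 at 1 TPM and 3.91 thinned.

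For Gfra3 minus Piezo2 neurons, Gabra2 gave -3.33 at 20 TPM, 2.55 at 1 TPM, -6.31 without rescaling, -6.10 as reads per 1000000 and -3.66 thinned. Gabra5 gave -16.4 at 1 TPM and 1.07 without rescaling, Gabbr1 5.17 without rescaling, Gabbr2 7.13 at 20 TPM and 6.95 without rescaling, and Slc12a5 -7.20 at 1 TPM. Genes past 2-fold between segments numbered 460, and 2239 with a filter on a mean of 1 TPM, 1077 with no filter and 1 added to both means, and 789 without rescaling. Between classes they numbered 838, and 2937, 1786 and 1455 in the same order. The first 2 settings admit more genes by construction. No paired analysis was possible because no test was run and the labels give the segments no shared replicate numbers.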
